A study of Gallus gallus with 4 samples.

Results

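The CTCF sites of chicken chromosomes 11 and 20 are described here, from the peaks called on these chromosomes in 3 peak lists of chromatin immunoprecipitation followed by sequencing (ChIP-seq). Peaks of different lists that shared at least 1 bp were merged into 1 site. This gave 1103 of the 15733 sites of the series, 489 on chromosome 11 and 614 on chromosome 20. Both chromosomes were picked because DT40 had many more peaks there than non-induced HD3. That excess is therefore given as a description, and nothing is supported with it. The ratio of DT40 to non-induced HD3 peaks was 2.43 on chromosome 11, the lower of the pair. It was 1.66 on chromosome 17, the highest of the compared chromosomes not picked for an excess. Chromosome 2 also had an excess, with a ratio of 3.22, and is named below only for comparison.

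CTCF is a zinc finger protein that binds DNA at insulators and at the anchors of chromatin loops, where it can halt the cohesin complex. In chicken erythroid cells it is known from the insulator at the edge of the beta-globin locus. Microchromosomes are the small chromosomes of birds, which are rich in genes and in G and C compared with the large ones.

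The series holds 4 libraries, and each group has 1 CTCF library. HD3 is clone A6 of the chicken line LSCC, an erythroblast line transformed by avian erythroblastosis virus, so both HD3 groups come from 1 clone. One HD3 group was left non-induced. The other was induced to differentiate with iso-H-7, a protein kinase inhibitor, and HEPES at a raised temperature, so agent and temperature cannot be told apart. DT40 is a chicken B-lymphoid line and was profiled untreated. All 3 CTCF libraries were made with a custom rabbit antibody against residues 86 to 233 of chicken CTCF. The input library in the labels is of HD3 and was not analysed here. No input of DT40 was used here, and the control behind the DT40 peaks is not named in these sources.

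Non-induced HD3 had 8768 peaks in all, induced HD3 had 4820, and DT40 had 13574. The lists score each peak but hold no reads, and library depth is therefore unknown. The score is the authors' own value and its scale is not stated, so scores were ranked only within 1 list. A site without a peak in a list may still have been bound, below what was called. There is no replicate, so no difference between groups could be tested. Intervals are 95% intervals, exact Poisson for densities and exact Clopper-Pearson for shares, and cover counting error only. The other microchromosomes, used for comparison, are 12 to 15, 17 to 19 and 21 to 28.

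On chromosome 11, DT40 had 472 peaks, non-induced HD3 had 194 and induced HD3 had 101. Over its span of 19.4 Mb, this was 10.01 peaks per Mb in non-induced HD3 (interval 8.65 to 11.5). Induced HD3 had 5.21 per Mb (interval 4.24 to 6.33) and DT40 had 24.3 (interval 22.2 to 26.6). In the HD3 lists these densities were below the 15.6 and 9.42 peaks per Mb of the other microchromosomes pooled, in non-induced and induced HD3. They were above the 8.74 and 4.81 of the whole lists, though both of these lie within the intervals of chromosome 11. Chromosome 12, of similar span, had 10.3 in non-induced HD3. In DT40, chromosome 11 was denser than the 20.8 per Mb (interval 20.1 to 21.6) of the other microchromosomes pooled.

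On chromosome 20, DT40 had 604 peaks, non-induced HD3 had 203 and induced HD3 had 132. Its span was 14.3 Mb, and the densities in that order were 42.2 (interval 38.9 to 45.7), 14.2 (interval 12.3 to 16.3) and 9.23 (interval 7.72 to 10.9) peaks per Mb. Its HD3 densities lay close to those of the other microchromosomes, within its own intervals. Among the 28 numbered or Z chromosomes compared, chromosome 20 was the densest in DT40 and chromosome 11 the 7th. In non-induced HD3 they were the 12th and the 21st.

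The ratio of DT40 to non-induced HD3 peaks was 2.43 (interval 2.05 to 2.89) on chromosome 11 and 2.98 (interval 2.53 to 3.51) on chromosome 20. The 25 numbered or Z chromosomes not picked ranged from 1.10 on chromosome 3 to 1.66 on chromosome 17, with a median of 1.29. Between the HD3 states neither chromosome stood apart. Induced HD3 had 0.521 peaks per non-induced peak on chromosome 11 and 0.650 on chromosome 20, and the range over those 25 was 0.480 to 0.781.

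**Figure D1:**
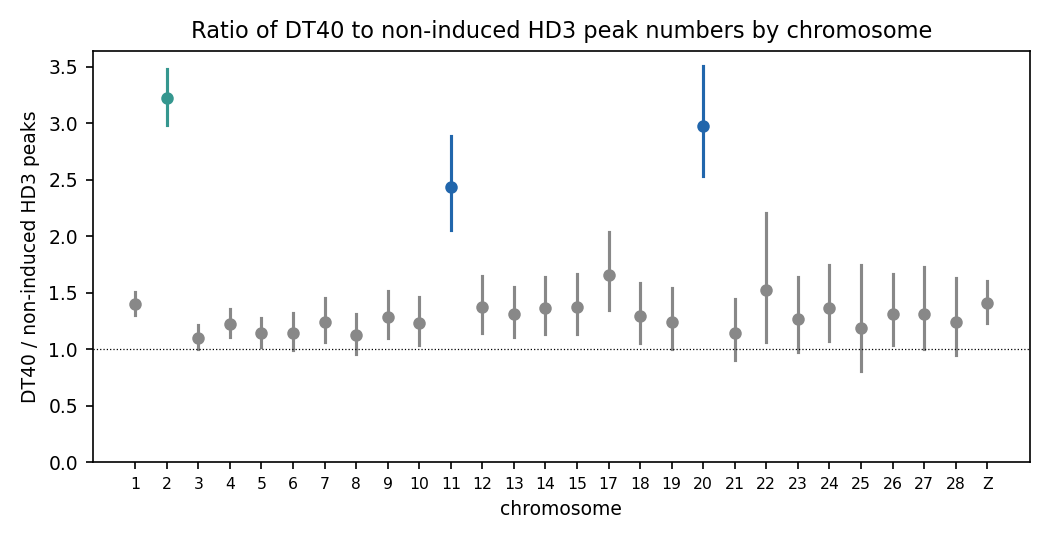
The ratio of DT40 to non-induced HD3 peak numbers (y axis) is plotted for each numbered chromosome other than 16, and for Z (x axis). Bars give the exact 95% interval of counting error. Chromosomes 20 and 11 stand at 2.98 and 2.43 (blue) and chromosome 2 at 3.22 (green), while the other chromosomes (grey) reach at most 1.66.

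The same counts were also taken among high-scored peaks. Within the top 500 of each list by score, chromosome 11 held 30 in DT40 and 12 in non-induced HD3, a ratio of 2.50. Chromosome 20 held 54 and 23, a ratio of 2.35, and the other microchromosomes gave a ratio of 0.670. When each list was limited to its 4820 best-scored peaks, which is the whole induced list, chromosome 11 had 222 DT40 peaks, 108 in non-induced and 101 in induced HD3. Chromosome 20 had 263, 125 and 132, and the DT40 ratios over non-induced HD3 were 2.06 and 2.10, against 0.872 on the other microchromosomes.

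Within the DT40 list, the median percentile of the peaks was 59.8 on chromosome 11 and 56.4 on chromosome 20, on either side of the 57.8 of the other microchromosomes. The upper end differed more on chromosome 20 than on 11. On chromosome 20, 116 of the 604 DT40 peaks (19.2%) were among the highest-scored 10% of the list, and on chromosome 11 the count was 64 of 472 (13.6%). The share was 12.3% on the other microchromosomes. Among the lowest-scored 10% of the list were 10.8% of the peaks of chromosome 11 and 7.12% of those of chromosome 20, against 7.42%. In non-induced HD3 the shares among the highest-scored 10% of its list were 13.8% on chromosome 20 and 11.3% on chromosome 11, against 15.1%. DT40 peaks had median lengths of 806 bp on chromosome 11 and 765 bp on chromosome 20, against 711 bp on the other microchromosomes pooled. This was not particular to the pair: chromosome 24 had the longest median, 876 bp, and chromosome 2 had 754 bp. HD3 medians are given for chromosome 11, chromosome 20 and the other microchromosomes pooled. They differed less, at 1207, 1210 and 1222 bp in non-induced HD3 and 639, 644 and 655 bp in induced HD3.

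The sites were next followed along chromosome 11 in 20 windows of 1 Mb, the last of them 0.388 Mb long. DT40 had more peaks than non-induced HD3 in all 20, and at least 1.5 times as many in all 20. On the other microchromosomes the shares of windows were 77.2% and 34.5%, and on all numbered chromosomes and Z without 2, 11, 16 and 20 they were 60.7% and 29.4%. At least 2 DT40 peaks per non-induced peak were found in 16 windows (80.0%, interval 56.3 to 94.3), against 13.1% and 15.1% in those same comparison sets. On chromosome 2, which also had an excess, the shares were 86.6%, 77.9% and 63.1% (interval 54.8 to 70.8) in that order. Limiting each list to its 4820 best-scored peaks gave 57.9% on chromosome 11, of the windows that still held a DT40 or non-induced peak. The comparison sets have no such value here. The full lists thus had more DT40 peaks along the whole chromosome, by uneven amounts, and 2 of the 20 windows had no HD3 peak at all. The DT40 list was also the longer over the whole series, at 13574 peaks against 8768 of non-induced HD3.

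The windows of chromosome 11 differed widely in peak number, from 2 to 65 in DT40 with a median of 18.5. The richest, at 17000001 to 18000000, held 65 DT40, 25 non-induced and 14 induced HD3 peaks. The first window held 53, 18 and 10 in the same order. The ratio was highest at 6000001 to 7000000, with 33 DT40 peaks against 6 non-induced and 4 induced. It was lowest, at 1.5, in the 4th window, with 15 DT40 peaks against 10, and in the 12th, with 3 against 2. DT40 alone had peaks at 12000001 to 13000000, where it had 8 and both HD3 lists had 0. This window lay inside the longest stretch of the chromosome without a non-induced HD3 peak, at 11750823 to 13334547, which held 12 DT40 peaks and 0 induced peaks. The longest stretch without a DT40 peak, at 18360068 to 19383922 near the end, held no separate HD3 site. The single non-induced peak that reached into it belonged to the site at 18359159 to 18360102, which DT40 shared.

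In 4 segments of equal length along chromosome 11, the ratios from the first to the last were 2.18, 2.86, 2.73 and 2.40. The third segment was the poorest in every list, with 22 non-induced, 11 induced and 60 DT40 peaks. Rich and poor windows were largely the same in both cell lines. Spearman's rho between non-induced HD3 and DT40 peak numbers over the 20 windows was 0.93, a description only, since windows share the libraries.

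Chromosome 20 was divided into 15 windows, the last of them 0.302 Mb long. DT40 had more peaks than non-induced HD3 in all 15, and at least 2 per non-induced peak in 14 (93.3%). When the lists were limited to 4820 peaks each, that share was 60.0%, again without a like value for other chromosomes. DT40 peak numbers ran from 10 to 89 per window and non-induced HD3 numbers from 4 to 28. The richest window, at 10000001 to 11000000, held 89 DT40, 28 non-induced and 20 induced HD3 peaks. The ratio reached 6 in the first window, with 48 DT40 peaks against 8 non-induced and 5 induced. It was again 6 at 4000001 to 5000000, with 24 against 4 and 3. The lowest ratio, 1.25, fell in the short last window, with 10 DT40 peaks against 8 non-induced and 5 induced.

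Over 4 such segments of chromosome 20, the ratios were 3.61, 3.05, 2.69 and 2.84. The longest stretch without a non-induced HD3 peak, at 4145423 to 5038947, held 17 DT40 peaks. The longest without a DT40 peak, at 3304269 to 3795475, held 1 non-induced peak and 0 induced peaks. Over the 15 windows rho between non-induced HD3 and DT40 was 0.78.

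**Figure D2:**
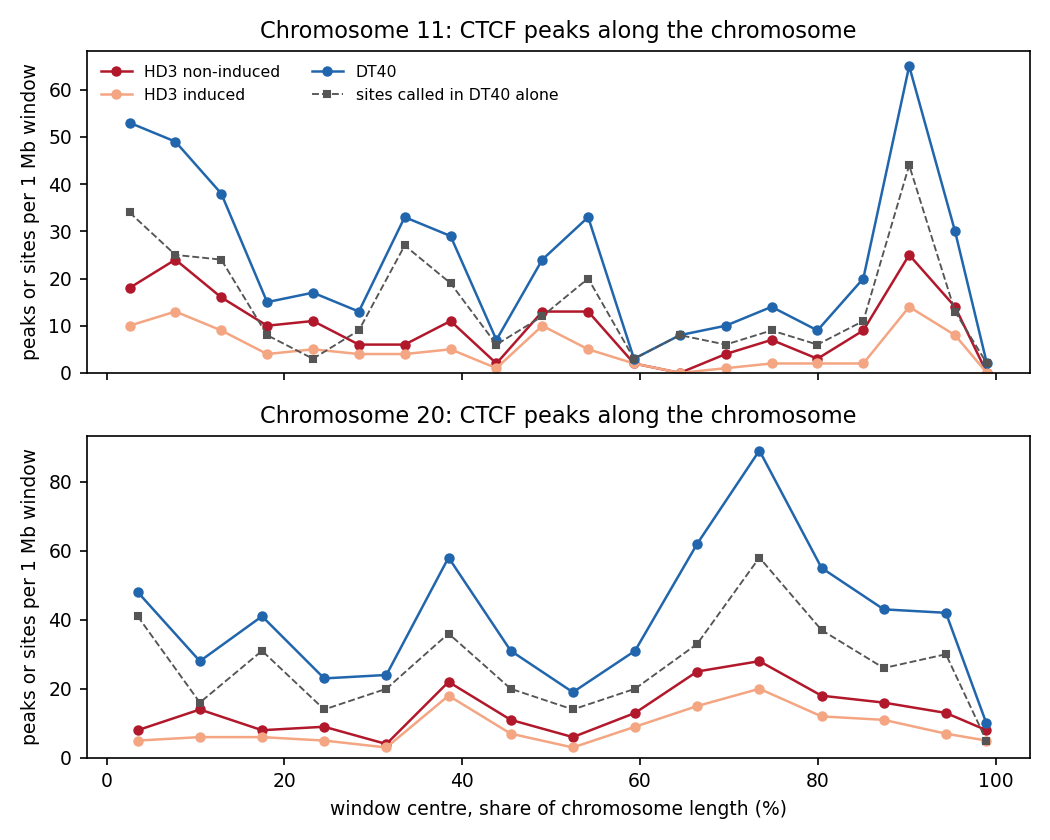
Peaks per 1 Mb window (y axis) of non-induced HD3, induced HD3 and DT40, with sites called in DT40 alone (dashed), are plotted against the window's centre as a share of chromosome length (x axis) for chromosomes 11 and 20. The DT40 line lies above the non-induced HD3 line in all 20 windows of chromosome 11 and all 15 of chromosome 20, and both lines peak in the same richest window, with 65 and 25 peaks on chromosome 11 and 89 and 28 on chromosome 20.

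The sites fell into 7 classes by the lists that contained them. Sites called in DT40 alone were the most frequent, at 289 of 489 on chromosome 11 (59.1%, interval 54.6 to 63.5) and 401 of 614 on chromosome 20 (65.3%, interval 61.4 to 69.1). Over all sites of the series the share was 41.9%, and on the other microchromosomes 32.7%. On chromosome 2, which also had an excess, it was 68.9%, above both. The density of DT40-only sites was 14.9 per Mb on chromosome 11 (interval 13.2 to 16.7) and 28.04 on chromosome 20 (interval 25.4 to 30.9). It was 7.84 (interval 7.38 to 8.32) on the other microchromosomes and 13.96 on chromosome 2. DT40-only sites occurred in each of the 20 windows of chromosome 11, from 2 to 44, and in each of the 15 of chromosome 20, from 5 to 58. These counts depended on list length: with each list limited to 4820 peaks, 117 and 127 sites were called in DT40 alone. No DT40-only count at that length is given here for other chromosomes. Whether the higher share remains at equal list lengths is therefore not shown.

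Sites called in all 3 lists numbered 83 on chromosome 11 (16.97%) and 109 on chromosome 20 (17.8%), against 23.4% over the series. As a density, chromosome 20 had 7.62 such sites per Mb, close to the 7.41 of the other microchromosomes, and chromosome 11 had 4.28. Non-induced HD3 and DT40 shared 91 further sites on chromosome 11 (18.6%) and 77 on chromosome 20 (12.5%), against 18.7% over the series. Induced HD3 and DT40 shared 3 and 5 (0.613% and 0.814%, against 1.17%). At equal list lengths, the sites shared with non-induced HD3 alone fell to 25 and 22, and those shared with induced HD3 alone rose to 14 and 21. The series-wide shares include these chromosomes, and the shares of all classes sum to the whole, so a high share of DT40-only sites lowers the others.

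**Figure D3:**
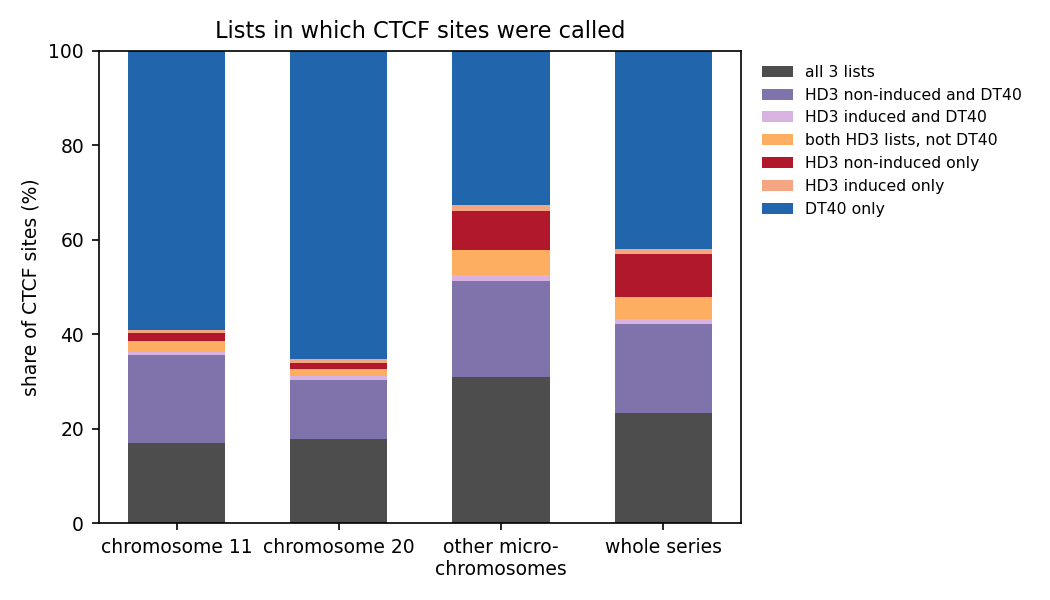
Stacked bars give the share of CTCF sites (y axis, percent) in each class of lists for chromosome 11, chromosome 20, the other microchromosomes and the whole series. DT40-only sites (blue) make up 59.1% and 65.3% on chromosomes 11 and 20, against 32.7% and 41.9%.

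Most HD3 sites of these chromosomes also had a DT40 call. Sites called in either HD3 list and not in DT40 numbered 23 on chromosome 11 (4.70%, interval 3.00 to 6.97) and 22 on chromosome 20 (3.58%, interval 2.26 to 5.37). The share was 14.8% over the series and also 14.8% on the other microchromosomes, but 4.75% on chromosome 2. These percentages are of all sites, DT40-only sites included, so the excess for which the pair was picked lowers them. With DT40-only sites set aside, 23 of 200 sites on chromosome 11 and 22 of 213 on chromosome 20 lacked a DT40 peak. The counts were 489 of 2218 on the other microchromosomes and 2335 of 9138 over the series. The 23 and 22 sites comprised 12 and 9 of both HD3 lists (2.45% and 1.47% of all sites, against 4.57% over the series). A further 8 and 8 were of non-induced HD3 alone (1.64% and 1.30%, against 9.09%). The remaining 3 and 5 were of induced HD3 alone (0.613% and 0.814%, against 1.18%).

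Taken from the HD3 side, 174 of 194 non-induced peaks of chromosome 11 (89.7%, interval 84.5 to 93.6) and 186 of 203 of chromosome 20 (91.6%, interval 86.9 to 95.05) were overlapped in DT40. The share was 75.5% over the whole list and between 66.0% and 85.7% on the 25 chromosomes not picked. Both chromosomes were picked for their many DT40 peaks, which makes an overlap more likely, so the higher share is a description only. When the lists were limited to the same length, it was 82.4% on chromosome 11 and 88.8% on chromosome 20. Other chromosomes have no like value here. In the full lists the share was also higher at low scores, under the same limit. The non-induced list was divided by score into 3 parts of equal size. In the lowest-scored part, 86.7% on chromosome 11 and 87.7% on chromosome 20 were overlapped in DT40, against 65.3% on the other microchromosomes. In the highest-scored part the shares were 92.5%, 95.2% and 87.4%.

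From the DT40 side, 180 of 472 peaks of chromosome 11 (38.1%, interval 33.7 to 42.7) and 198 of 604 of chromosome 20 (32.8%, interval 29.05 to 36.7) had a non-induced HD3 peak on them, against 50.1% of all DT40 peaks. In induced HD3 the shares were 18.2% and 19.2%, against 28.7%. On chromosome 2, which also had an excess, 26.8% of DT40 peaks had a non-induced and 14.1% an induced HD3 peak on them. The pair was picked for its many DT40 peaks, the base of these shares, so the shares are a description only. When the lists were limited to the same length, those in induced HD3 were 35.1% and 42.2%. The 28.7% is of the full lists, so it cannot be set beside these values. Sharing rose steeply with score. In the lowest-scored of 3 equal parts of the DT40 list, 9 of 135 peaks of chromosome 11 (6.67%) and 8 of 192 of chromosome 20 (4.17%) were overlapped in either HD3 list. In the highest-scored part the counts were 148 of 210 (70.5%) and 177 of 254 (69.7%). On the other microchromosomes the shares ran from 35.3% to 85.6%.

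The HD3 states were compared in the same way. Of the induced peaks, 95 of 101 on chromosome 11 (94.1%) and 122 of 132 on chromosome 20 (92.4%) were overlapped in non-induced HD3, against 92.3% over the whole list. Conversely, 95 of 194 (49.0%, interval 41.7 to 56.2) and 118 of 203 (58.1%, interval 51.02 to 64.997) non-induced peaks were overlapped after induction, against 50.2%. The interval of chromosome 20 lay above that share, and the other microchromosomes had 55.9%. When a reciprocal overlap of 50% was required, the shares of induced peaks fell to 63.4% and 54.5%, and those of non-induced peaks to 33.0% and 35.5%. DT40 overlapped 86 of 101 induced peaks on chromosome 11 (85.1%) and 117 of 132 on chromosome 20 (88.6%), against 81.0% over the whole list.

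Classes differed in how their peaks ranked within a list, counted as a percentile of all peaks of that list. DT40-only sites ranked low, with a median percentile of 39.4 on chromosome 11 and 36.9 on chromosome 20, close to the 36.6 of the other microchromosomes. The sites also called in HD3 ranked higher in DT40 than their counterparts on the other microchromosomes. The pair was picked for its many DT40 peaks and these classes need a DT40 call, so this is a description only. Sites of all 3 lists had a median DT40 percentile of 94.3 on chromosome 11 and 95.9 on chromosome 20, against 82.9 on the other microchromosomes. For sites shared with non-induced HD3 alone the medians were 78.0 and 83.0, against 52.6. Chromosome 2, which also had an excess, lay between, with 87.6 for sites of all 3 lists and 69.4 for those shared with non-induced HD3 alone. In the non-induced list the same classes had close medians on chromosome 11, chromosome 20 and the other microchromosomes: 76.7, 80.2 and 78.9 for sites of all 3 lists, and 36.2, 33.2 and 36.9 for those shared with DT40 alone.

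This was followed site by site. Each site that DT40 shared with non-induced HD3 was ranked among all 6619 such sites, once by its non-induced score and once by its DT40 score. Only sites with a DT40 call enter, and low-scored non-induced peaks had one more often on these chromosomes, as given above. The differences are therefore described only, and cannot be told apart from the excess for which the pair was picked. The 174 sites of chromosome 11 had a median rank at the 45.4th percentile in non-induced HD3 and at the 75.9th in DT40. The median difference per site was 21.5 percentile points (quartiles 5.70 and 40.6). The 186 sites of chromosome 20 had medians at the 53.4th and 83.5th percentiles, with a median difference of 19.6 points (quartiles 5.22 and 42.9). A higher rank in DT40 was found for 151 sites (86.8%, interval 80.8 to 91.4) and 166 sites (89.2%, interval 83.9 to 93.3), against 48.2% of all 6619.

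Chromosomes 11 and 20 had the largest median differences of the 28 chromosomes, followed by chromosome 2 at 13.9 points. The 25 others lay between −9.61 on chromosome 27 and 11.4 on Z. Ranks sum to a constant over all sites, so a rise here comes with a fall elsewhere. The order of sites within each chromosome was partly kept, with a Spearman's rho between the scores of 0.64 over the sites of chromosome 11 and 0.71 over those of chromosome 20. It was 0.66 on the other microchromosomes.

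**Figure D4:**
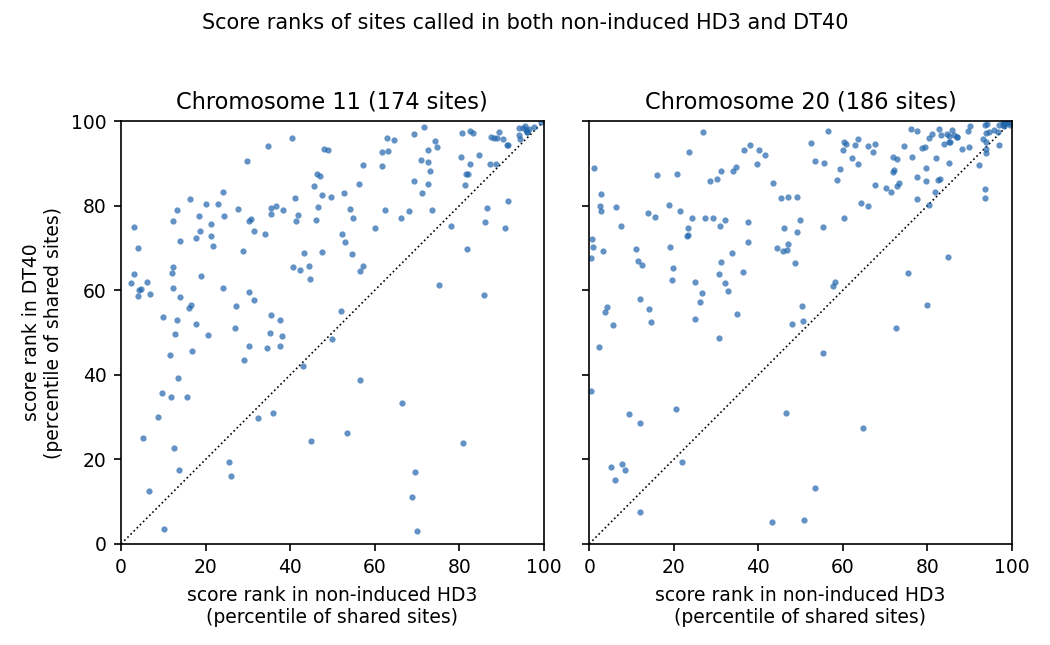
Each point is a site that DT40 shared with non-induced HD3, placed by its score rank in non-induced HD3 (x axis) and in DT40 (y axis), as percentiles of all such sites of the series, for chromosomes 11 (174 sites) and 20 (186 sites). The dotted line marks equal rank, and 151 and 166 points lie above it.

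The rank difference also spanned the chromosomes. On chromosome 11 it had a positive median in all 16 windows of 1 Mb with at least 3 shared sites, from 6.05 to 39.6 points. On chromosome 20 the median was positive in 14 of 15 windows, and the exception was the short last window, at −0.45 points, which also had the lowest peak ratio. On the other microchromosomes it was positive in 45 of 134 windows, and on chromosome 2 in 87 of 110. Over the 4 segments the medians were 21.4, 20.4, 31.0 and 22.5 points on chromosome 11 and 16.05, 16.98, 25.6 and 25.8 on chromosome 20.

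No such difference appeared between the HD3 states. Over the 95 sites of chromosome 11 called in both, the median of induced minus non-induced rank was −0.14 points, with 47 sites (49.5%) ranked higher after induction. On chromosome 20 it was 0.341 points over 118 sites, with 64 (54.2%) higher. DT40 against induced HD3 shares the DT40 library with the comparison above. It gave medians of 21.5 points on both chromosomes, with 72 of 86 sites and 102 of 114 ranked higher in DT40.

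**Figure D5:**
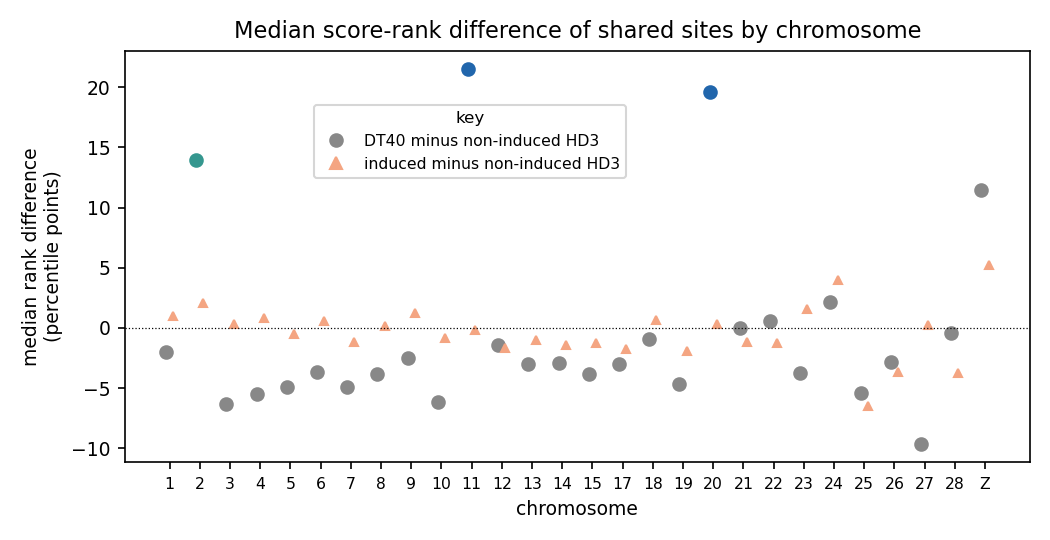
The median score-rank difference of shared sites (y axis, percentile points) is plotted by chromosome (x axis) for DT40 minus non-induced HD3 (circles) and induced minus non-induced HD3 (triangles). Circles for chromosomes 11 and 20 (blue) stand at 21.5 and 19.6, above chromosome 2 (green) at 13.9, while their triangles lie at −0.14 and 0.341.

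The highest-scored site of chromosome 11 was the same in all 3 lists. It lay at 6141069 to 6143116 and had a score of 1039 in non-induced HD3 (rank 38 of its list), 458 in induced HD3 (rank 64) and 2047 in DT40 (rank 12). Next in non-induced HD3 came the sites at 1476498 to 1478388 (score 580), 15126861 to 15128633 (score 489), 18204810 to 18206666 (score 477) and 5631782 to 5633093 (score 472). All were called in every list. The site at 3337751 to 3339458 stood at the 75.9th percentile of the non-induced HD3 list (score 190) and at the 99.2nd of the DT40 list (score 1066).

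The highest-scored DT40-only sites of chromosome 11 ranked well below these. The first, at 1877490 to 1878383, had a score of 552 and rank 589 in the DT40 list. Those at 6374589 to 6375533 and 17410145 to 17411325 followed, with scores of 519 and 499.8. Among sites missing from DT40, the highest-scored lay at 14820941 to 14822286. It was called in both HD3 lists, with a score of 417 in non-induced HD3 (rank 391) and 228 in induced HD3 (rank 309). The others of that kind lay at 540520 to 541758 (scores 337 and 141) and 3359078 to 3360290 (scores 292 and 188).

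Chromosome 20 had higher-ranked sites in both HD3 lists. The highest-scored of its non-induced HD3 peaks, at 14061034 to 14062773, had a score of 1098 (rank 30). In induced HD3 its score was 656 (rank 17) and in DT40 1219 (rank 77). The site lies in the last window, where the DT40 excess was smallest. The next site of non-induced HD3, at 12680519 to 12682670 (score 1067, rank 35), had a DT40 score of 1489 (rank 37). The one after it, at 10704220 to 10706230 (score 955, rank 52), had a DT40 score of 1725 (rank 20). Each of the 5 highest-scored peaks of each HD3 list on this chromosome was called in all 3 lists.

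A DT40-only site of chromosome 20, at 2816328 to 2822015, was 1 of 4 DT40 peaks tied at the highest score of that list, 3100, and was 5688 bp long. The next DT40-only sites were shorter and ranked far lower, the first of them at 578794 to 579789 with a score of 636 (rank 411). Another followed at 872228 to 873383 with a score of 553. Sites missing from DT40 reached scores of 299 in non-induced and 213 in induced HD3, at 8868073 to 8869360. Another of that kind, at 82936 to 84234 close to the start of the chromosome, had scores of 272 and 150.

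Most sites with a call in induced HD3 and none in non-induced HD3 had low scores. Median percentiles in the induced list were 22.3 and 20.6 for induced-only sites of chromosomes 11 and 20. For those shared with DT40 they were 5.05 and 13.95. On chromosome 11 the highest scored was 79.6, at 18331180 to 18332175, and the site had a DT40 score of 358. On chromosome 20 the highest-scored, at 5861908 to 5866064, was an exception, with a score of 122 at the 71.6th percentile of the induced list. It was 4157 bp long, and neither other list had a call there. The next, at 5869945 to 5871493, lay close by with a score of 65.1. Both fall in the 100 kb window at 5800001 to 5900000, which with 5 induced peaks tied for the most on the chromosome and had 3 non-induced and 4 DT40 peaks.

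Many DT40 peaks lay near another on both chromosomes. Whether they lay closer than their density alone would give was not tested. A DT40 peak on either side lay within 10 kb for 283 of 472 on chromosome 11 (60.0%, interval 55.4 to 64.4) and 410 of 604 on chromosome 20 (67.9%, interval 64.0 to 71.6). On the other microchromosomes, where peaks were sparser, it was 48.1% (interval 46.2 to 49.9). Chromosome 2, with 19.4 DT40 peaks per Mb, had 55.8%. Median gaps between DT40 peaks were 16.7 kb and 11.4 kb, against 23.6 kb on the other microchromosomes. On chromosome 11 the most crowded 100 kb, at 17100001 to 17200000, held 15 DT40 peaks against 2 non-induced and 1 induced HD3 peak. Of its sites, 13 were called in DT40 alone. The corresponding window of chromosome 20 was 10900001 to 11000000, with 16 against 4 and 2, followed by 10300001 to 10400000, with 14 against 4 and 3.

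Most DT40-only sites lay over 10 kb from any HD3 site. The median distance to the nearest HD3 site was 19.6 kb on chromosome 11 and 18.8 kb on chromosome 20, and 37.7% and 33.7% lay within 10 kb of one. On the other microchromosomes these values were 16.1 kb and 36.0%. Unbroken runs of at least 5 DT40-only sites, with no HD3 site between them, held 94 such sites on chromosome 11 (32.5%) in 13 runs, the longest of 12. On chromosome 20 they held 206 (51.4%) in 22 runs, the longest of 27. The share on the other microchromosomes, with fewer DT40-only sites per HD3 site, was 16.3%. On chromosome 2 it was 68.5%, with a longest run of 63, so such runs were not particular to the pair.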

How the data were processed

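Peak lists of CTCF ChIP-seq from 3 libraries were analysed, 1 per group as the labels give them. Per the submitters' processing notes, the authors used CASAVA 1.8.2, Bowtie2 and MACS with build galGal4. The sources used here name neither the MACS parameters nor its controls. The deposited score of each peak is the authors' own value. Its lowest value was 50.0 in each list, and its scale is not stated, so stringency may differ between lists. Spans are the largest peak end in any list. No galGal4 sequence or annotation was used, so sites are named by coordinates, 1-based, without genes.

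Peaks sharing at least 1 bp were merged. The sites named are drawn, for each chromosome, from the 5 best-scored peaks per list and the 5 best DT40-only sites. To these come the 3 best HD3 sites without a DT40 call, the 2 best of induced HD3 without a non-induced call, the most crowded 100 kb windows, the 1 Mb windows of extreme ratio and the longest empty stretches. Windows of 1 Mb with the most peaks were added after their values were seen. Counts, ranks and intervals were computed with Python 3.11.15, NumPy 2.4.6, pandas 2.3.3 and SciPy 1.17.1. Only the steps that merge peaks and class sites were tested on simulated lists. Alternatives were score minimums, equal list lengths, overlap rules, long peaks, window sizes and neighbour distances. The chromosomes, members and lists were chosen with earlier results of these data known.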

Additional observations from a re-analysis of the deposited data

How the results depend on the processing

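No paired analysis was possible because the groups hold 1 library each, and no replicate could be left out. Rank-difference settings and the use of the 500, 1000 and 2000 highest-scored peaks were chosen after seeing the data. Planned genes and sequences were not run. Of 218 values under other settings, 140 lay within the counting interval or 1.5 times the count of the reported value, and 78 lay outside. A reversal of sign was looked for only in the rank differences, and 0 reversed. The rank differences stayed within their intervals in all settings tried. So did the window shares with windows of 0.5 Mb, 2 Mb or shifted. Pairs below are chromosome 11, then chromosome 20.

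With a score of at least 100, DT40 had 293 and 354 peaks, non-induced HD3 108 and 125, and induced HD3 45 and 63. Sites of all 3 lists numbered 39 and 55, and those of both HD3 lists only 6 and 4. Induced HD3 with DT40 gave 0 and 2, and induced HD3 alone 0 and 1. Non-induced HD3 with DT40 gave 54 on chromosome 11, and DT40 alone 234 on chromosome 20. DT40-only density was 10.2 and 16.4 per Mb. Non-induced peaks were overlapped in induced HD3 for 41.7% and 47.2%, and DT40 peaks for 13.3% and 16.1%. On chromosome 11, induced peaks were overlapped in non-induced HD3 for 100% and DT40 peaks for 32.4%.

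With equal numbers of top-scored peaks, counts were 108 and 125 in non-induced HD3 and 222 and 263 in DT40, and the chromosome 20 ratio was 2.10. Non-induced HD3 with DT40 gave 25 and 22 sites, induced with DT40 14 and 21, non-induced alone 5 and 5, induced alone 9 and 9, and DT40 alone 117 and 127 (6.03 and 8.88 per Mb). Non-induced peaks were overlapped in induced HD3 for 72.2% and 78.4%, induced in non-induced for 77.2% and 77.3%, and DT40 in induced for 35.1% and 42.2%. Non-induced in DT40 was 82.4% on chromosome 11, and DT40 in non-induced was 43.7% on chromosome 20, where 60.0% of windows kept at least 2 DT40 peaks per non-induced peak. The ratio was 1.93 with 1000 peaks on chromosome 11, and 2.35 with 500 and 2.33 with 2000 on chromosome 20.

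A reciprocal overlap of 50% gave 15 and 18 sites of non-induced HD3 alone and 16 and 24 of induced HD3 alone, and 10 of induced HD3 with DT40 on chromosome 20. It gave overlap shares of 33.0% and 35.5% (non-induced in induced), 63.4% and 54.5% (induced in non-induced) and 71.3% and 74.2% (induced in DT40). Midpoints within 500 bp gave 5 induced-only sites on chromosome 11 and 9 of induced HD3 with DT40 on chromosome 20. Without peaks over 3000 bp, chromosome 20 had 3 induced-only sites. Counting 1.5 DT40 peaks per non-induced peak as an excess gave 100% of windows on chromosome 11. Percentiles within the chromosome gave DT40 medians of 69.4 and 73.4 for sites shared with non-induced HD3 alone, 33.2 for DT40-only sites of chromosome 11 and 90.1 for all-list sites of chromosome 20. DT40 peaks with a neighbour were 40.7% and 48.5% within 5 kb, 77.1% and 86.6% within 20 kb, and 52.8% and 62.2% after joining peaks under 1 kb apart. Apart from settings that change the list or rule by construction, the cause was not tested. Depth is unknown, so uncalled weak sites cannot be told from absent ones.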

Other observations

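Peaks longer than 3000 bp were rare on both chromosomes. DT40 had 2 on chromosome 11 and 2 on chromosome 20, induced HD3 had 1 and 2, and non-induced HD3 had 0 and 0. The longest site of chromosome 11, at 747686 to 759016, was 11331 bp long, and it was picked out after its values were seen. A single DT40 peak with a score of 152 spanned it, and induced HD3 had a peak inside it with a score of 50.2, near the minimum of that list. Non-induced HD3 had no call there. In DT40, 6 sites of chromosome 11 and 12 of chromosome 20 held more than 1 peak of that list.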
